A study of Mus musculus with 2 samples.

Results

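The kappa light chain variable genes, whose symbols begin with Igkv, were taken from the count tables of run 1 by symbol. They made up 160 of the 32285 genes, of which the annotation calls 100 functional variable genes and 60 pseudogenes. An antibody light chain is built when a B cell joins 1 variable segment to a J segment upstream of the constant gene Igkc, and each cell normally keeps the product of a single joining. The variable segment forms most of the antigen-binding part of the kappa chain. A plasma cell, the antibody-secreting descendant of a B cell, makes large amounts of this transcript, so its Igkv gene can be read from its counts, although many clones use the same gene.

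By the series text, cells came from spleens of infected mice on the C57BL/6 background, either PEP-WT or PEP-619WW, the latter with a substitution at codon 619 of Ptpn22, the gene for the phosphatase PEP, made by CRISPR/Cas9 in the germline and therefore carried by all cells of the body. All mice had received LCMV-cl13, a lymphocytic choriomeningitis virus strain that persists, and spleens were taken at 8 dpi. Cells of 4 to 5 age- and sex-matched animals were pooled per genotype, sorted as live CD45+ and made into 1 library of 10x Genomics 3' tags each. The groups therefore have no replicates, no test between them was possible, and genotype, library and the clones of single animals cannot be told apart. The labels of both samples name liver, a Jurkat cell line and tumor infiltrating cells, which differs from the splenocytes of the protocol text and of the methods, and the genotype label alone was used to group them. A pair of runs was deposited per sample, run 1 with 14821 and 8576 barcodes and run 2 with 9539 and 11029. The cell numbers in the methods of the study are those of run 2, so the description of mice, spleen and sort may not hold for run 1, from which all values below come unless run 2 is named. The substitution cannot be read from gene counts; Ptpn22 itself had 76.7 CPM (its count scaled to equal library totals) in the PEP-WT library and 94.7 CPM in the PEP-619WW library.

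Barcodes were sorted by 3 gates on unique molecular identifiers (UMIs), each of which stands for a captured molecule. Plasma barcodes held at least 5 UMIs of Mzb1, an endoplasmic reticulum protein of antibody-secreting cells. B barcodes had Cd79a and Ms4a1 but fewer than 5 Mzb1 UMIs, and T barcodes had Cd3e, no Cd79a and fewer than 5 Mzb1 UMIs. PEP-WT gave 2361 plasma, 5515 B and 1729 T barcodes of 14821 in all, and PEP-619WW gave 1893, 2313 and 1011 of 8576. A further 25 PEP-WT and 46 PEP-619WW barcodes met the T rule but fell in the plasma gate by Mzb1. The libraries shared 39 barcode strings, of which 5 were in the plasma gate in both.

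The plasma gate was mixed. All 7 plasma cell markers were detected in it, from Tnfrsf17 in 10.6% (PEP-WT) and 10.2% (PEP-619WW) up to Jchain in 72.2% and 86.2%. Ms4a1, a surface protein of B cells that plasma cells largely lose, was found in 31.4% and 31.2% of plasma barcodes with at least 1000 Igkc UMIs and more Igkc than Iglc, called kappa-high here. In plasma barcodes that were neither kappa-high nor lambda-high (at least 1000 Iglc UMIs and more Iglc than Igkc), Ms4a1 was found in 86.9% and 59.3%. Kappa-high barcodes numbered 1039 of 2361 in PEP-WT and 904 of 1893 in PEP-619WW. Markers of other cells also differed between the libraries within the plasma gate. The 5 neutrophil markers summed to 988 CPM in PEP-WT and 1763 CPM in PEP-619WW, with S100a8 in 18.3% and 47.5% of barcodes, and the 4 erythroid markers summed to 1060 CPM and 187 CPM. No marker of the lists was at 0 in this gate. The part of these other transcripts in the Igkv results was not tested.

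The sequences that matter most for reading the counts are those of close copies, because 3' tags are assigned by small differences. For 3 pairs of genes, the last 120 bases of the germline coding sequence are shown from the GENCODE vM21 transcripts (GRCm38), 5′ to 3′ in the direction of transcription, with capitals at the positions where the members of a pair differ. Igkv12-46 and Igkv12-44, the leading genes of the plasma barcodes, differed at 9 of these positions and lie at chr6:69764523-69764642 and chr6:69814631-69814750 on the minus strand.
Igkv12-46: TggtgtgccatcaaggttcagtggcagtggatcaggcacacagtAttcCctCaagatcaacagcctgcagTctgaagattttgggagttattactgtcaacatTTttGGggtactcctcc
Igkv12-44: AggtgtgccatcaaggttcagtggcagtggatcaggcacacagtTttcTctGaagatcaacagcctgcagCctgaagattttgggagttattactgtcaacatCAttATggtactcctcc
Igkv1-110 and Igkv1-117, at chr6:68271148-68271267 and chr6:68121708-68121827 on the plus strand, differed at 4 positions and are shown because they were often counted in the same barcode.
Igkv1-110: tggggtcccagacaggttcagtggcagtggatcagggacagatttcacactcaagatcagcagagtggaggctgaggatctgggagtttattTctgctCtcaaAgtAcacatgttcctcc
Igkv1-117: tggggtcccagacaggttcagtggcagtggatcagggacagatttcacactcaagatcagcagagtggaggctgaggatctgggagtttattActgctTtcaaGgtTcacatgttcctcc
Igkv13-84 and Igkv13-85 are identical over these bases (0 differences) and lie in opposite orientation, Igkv13-84 at chr6:68939948-68940067 on the plus strand and Igkv13-85 at chr6:68930269-68930388 on the minus strand.
Igkv13-84: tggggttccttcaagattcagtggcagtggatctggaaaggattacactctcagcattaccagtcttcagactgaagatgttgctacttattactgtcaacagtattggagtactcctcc
Igkv13-85: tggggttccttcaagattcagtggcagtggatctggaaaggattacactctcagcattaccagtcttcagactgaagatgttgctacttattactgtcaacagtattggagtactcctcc
Of the 100 functional genes, 50 had no stretch of 90 coding bases in common with any other Igkv coding sequence. The lowest shares of such unique stretches were 47.3% for Igkv6-20 and Igkv6-29 and 59.7% for Igkv13-84, Igkv13-85, Igkv5-43 and Igkv5-45, and the counts of these 6 genes are uncertain for this reason. Igkv4-59 and Igkv4-68 were also identical over the last 120 bases, with 69.6% and 80.6% unique stretches, so their counts are uncertain too. The gene nearest to Igkv12-46 over these bases was Igkv12-41, with 5 differences.

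Igkv transcripts were found mostly in the plasma gate. Plasma barcodes held 33287 Igkv UMIs in PEP-WT and 40967 in PEP-619WW, which was 11.01 per 10000 UMIs (95% exact Poisson interval 10.9 to 11.1) and 14.8 (14.7 to 14.9). B barcodes held 1574 and 846 Igkv UMIs, or 0.874 per 10000 (0.832 to 0.919) and 0.969 (0.904 to 1.04). Their level was thus 12.6 times lower than in plasma barcodes in PEP-WT and 15.3 times lower in PEP-619WW. T barcodes, which make no light chain, gave the level of free RNA and stray counts with 59 and 80 Igkv UMIs, or 0.0585 (0.0445 to 0.0754) and 0.101 (0.0797 to 0.125) per 10000. This background amounted to 0.531% and 0.679% of the plasma level and to 6.68% and 10.4% of the B level. It may be too low, because the T gate left out barcodes with Cd79a or at least 5 Mzb1 UMIs. These intervals, like all others here, cover counting error only, and mice of 1 pool are not separated.

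At least 1 Igkv UMI was seen in 71.1% (PEP-WT) and 77.9% (PEP-619WW) of plasma barcodes, in 22.6% and 27.6% of B barcodes and in 3.18% and 6.53% of T barcodes. Median depths differed, with 9899 and 11400 UMIs in plasma, 2460 and 3048 in B, and 3981 and 6286 in T barcodes. When each barcode was reduced to 1000 UMIs, leaving out 4 and 49 plasma, 92 and 64 B, and 38 and 34 T barcodes that were shallower, the shares were 40.6% and 49.4% in plasma, 9.32% and 10.4% in B, and 0.819% and 1.61% in T barcodes. The order of the gates was the same at both depths.

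Functional genes carried nearly all of this signal. The 100 functional genes held 99.7% of the plasma Igkv UMIs in PEP-WT and 99.6% in PEP-619WW, with 94 and 95 of them detected. The 60 pseudogenes held 103 and 173 UMIs, and 17 and 15 of them were detected. Igkv3-11 alone gave 67 and 140 of these UMIs. Over all barcodes of both libraries, 33 genes were at 0, of which 31 were pseudogenes. The functional genes at 0 were Igkv20-101-2 and Igkv4-54, and neither shared a stretch of 90 coding bases with another Igkv gene.

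Igkv counts followed the constant gene. Among kappa-high plasma barcodes, 1015 of 1039 in PEP-WT (97.7%, 95% exact binomial interval 96.6 to 98.5) and 887 of 904 in PEP-619WW (98.1%, 97.0 to 98.9) held at least 3 Igkv UMIs, with medians of 24 and 33. Only 4 and 5 of these barcodes had 0. The median depth of kappa-high barcodes was 13267 UMIs in PEP-WT and 17540.5 in PEP-619WW, so these medians were not at equal depth. The lambda-high barcodes, 46 and 27 in number, had a median of 1 Igkv UMI in each library, and at least 3 were found in 13 of 46 (28.3%, 16.0 to 43.5) and 10 of 27 (37.0%, 19.4 to 57.6). The remaining plasma barcodes, 1276 and 962, had medians of 0 and 1. Even in kappa-high barcodes the Igkv UMIs amounted to 0.897% and 1.06% of the Igkc UMIs.

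**Figure D1:**
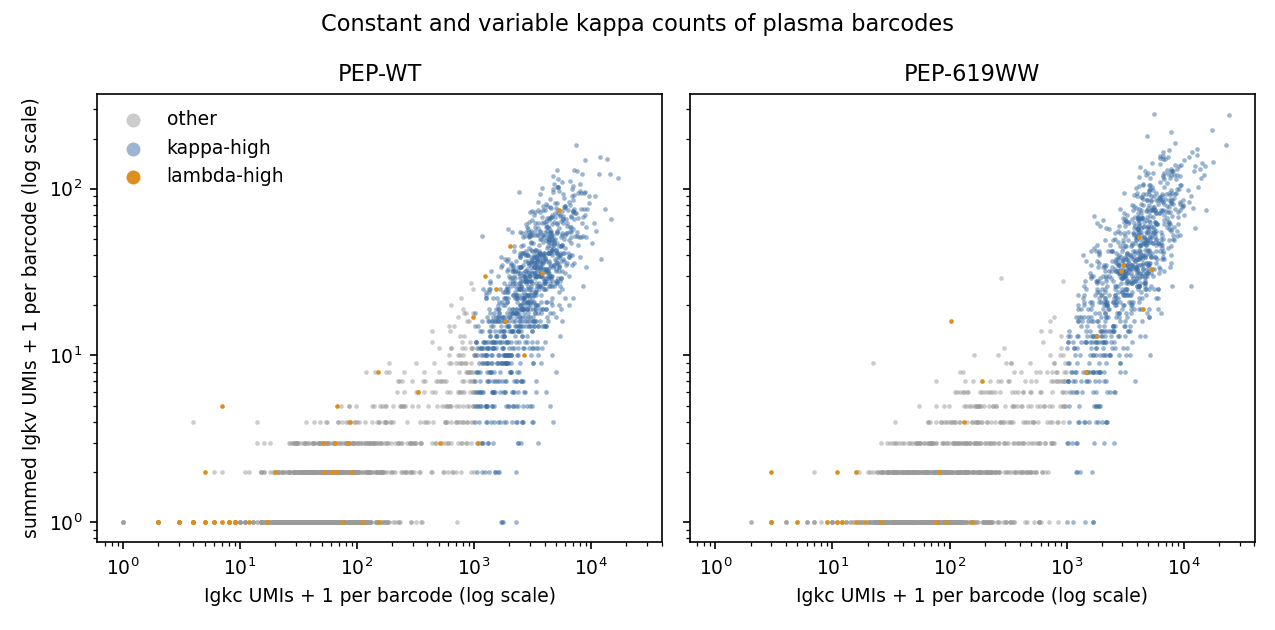
Summed Igkv UMIs against Igkc UMIs of each plasma barcode, both plus 1 on log axes, with PEP-WT on the left and PEP-619WW on the right. Kappa-high barcodes (blue) hold a median of 24 and 33 Igkv UMIs, at median depths of 13267 and 17540.5 UMIs. Lambda-high barcodes (orange) lie mostly at the bottom with a median of 1, apart from a few among the blue points.

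The ratio of Igkv to Igkc UMIs differed between genes in both libraries. In kappa-high barcodes dominated by Igkv12-44, its UMIs were a median of 1.502% of the Igkc UMIs in PEP-WT (56 barcodes, interquartile range 0.952 to 1.88) and 1.37% in PEP-619WW (58 barcodes, 0.939 to 2.03). Igkv12-46 had 1.05% (97 barcodes, 0.810 to 1.39) and 1.32% (117 barcodes, 0.916 to 1.73), and Igkv10-96 had 0.924% and 0.885%. Igkv5-43 had 1.19% and 1.41%. At the lower end, Igkv13-85, with 59.7% unique stretches, had 0.198% (21 PEP-WT barcodes, 0.116 to 0.229) and Igkv2-137, whose stretches were all unique, had 0.229% (11 PEP-WT barcodes, 0.181 to 0.335). Across 25 genes with at least 10 such barcodes in each library, the log of these medians correlated between libraries with Pearson's r = 0.728, across genes that share the assay and the genome. The part of reads lost between copies in these differences was not tested. A share of Igkv UMIs weights genes such as Igkv12-44 more than Igkv13-85, and shares of barcodes are given first below.

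Most plasma barcodes with enough counts were ruled by a single Igkv gene. Of the barcodes with at least 3 Igkv UMIs, 1210 in PEP-WT and 1076 in PEP-619WW, the leading gene held a median of 96.6% (95.7 to 97.2) and 92.4% (90.9 to 93.8) of the Igkv UMIs. It held over 50%, here called dominant, in 1154 PEP-WT barcodes (95.4%, 94.0 to 96.5) and 991 from PEP-619WW (92.1%, 90.3 to 93.6). It held at least 80% in 74.6% and 67.6%, and all of them in 42.1% and 29.8%. In B barcodes only 51 and 39 reached 3 Igkv UMIs, and 42 and 33 of these had a dominant gene. In T barcodes 1 and 4 reached 3 UMIs.

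The ratio is the share in PEP-619WW over that in PEP-WT on the log2 scale, with an exact conditional binomial interval. Igkv12-46 was the most frequent dominant gene of plasma barcodes in both libraries. It ruled 104 of the 1154 in PEP-WT (9.01%, 7.42 to 10.8) and 132 of 991 in PEP-619WW (13.3%, 11.3 to 15.6), a log2 ratio of 0.56 (0.18 to 0.95). Its relative Igkv12-44 followed with 72 barcodes (6.24%, 4.91 to 7.79) and 78 (7.87%, 6.27 to 9.73), whose ratio of 0.34 had an interval of -0.15 to 0.82 that held 0. Igkv10-96 also ruled 72 barcodes in PEP-WT, and it ruled 46 in PEP-619WW (4.64%, 3.42 to 6.14). The intervals of Igkv12-46 and Igkv12-44 were apart in PEP-619WW and overlapped in PEP-WT.

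Behind them stood a flat series of genes whose neighbours in the order had overlapping intervals. Igkv17-121 ruled 44 PEP-WT and 41 PEP-619WW barcodes (3.81% and 4.14%), Igkv1-117 ruled 39 and 39, and Igkv15-103 ruled 39 and 32. Igkv3-2 ruled 37 and 22 (3.21% and 2.22%), and Igkv17-127 ruled 32 and 26. In all, 77 genes were dominant in at least 1 PEP-WT barcode and 83 in PEP-619WW, with 73 found in both libraries and 87 in either.

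**Figure D2:**
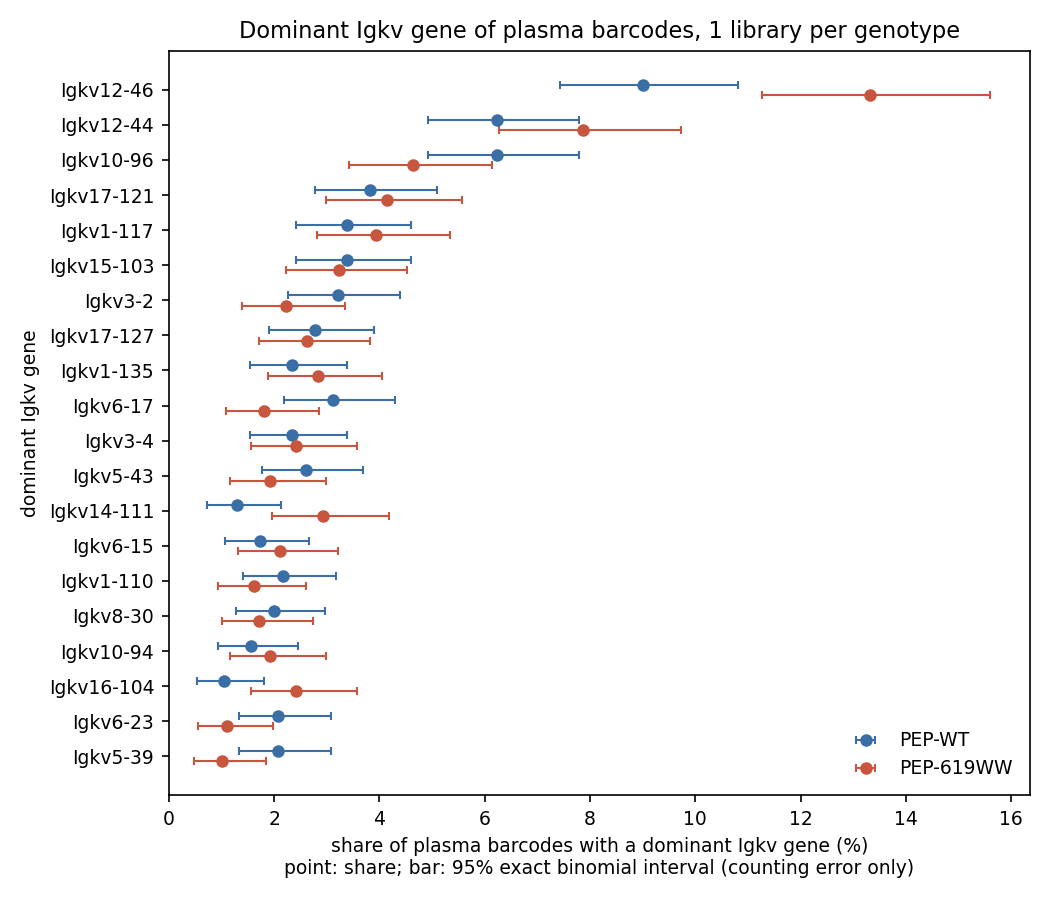
Share of plasma barcodes with a dominant Igkv gene that each gene held, in percent, for the 20 genes with the highest summed share, in PEP-WT (blue) and PEP-619WW (red). Points are shares and bars are 95% exact binomial intervals; Igkv12-46 leads at 9.01% and 13.3%, and the intervals of the other genes shown overlap between the libraries.

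Read by UMIs rather than by barcodes, Igkv12-46 and Igkv12-44 weighed more in both libraries and Igkv10-96 did not. Igkv12-46 held 4787 of 33287 plasma Igkv UMIs in PEP-WT (14.4%, 14.0 to 14.8) and 7142 of 40967 in PEP-619WW (17.4%, 17.1 to 17.8). Igkv12-44 held 10.6% and 12.5%, and Igkv10-96 held 6.04% and 4.35%, beside 6.24% and 4.64% of the dominated barcodes. The 10 barcodes richest in Igkv gave 4.15% and 5.08% of all plasma Igkv UMIs, so that the totals did not rest on a few droplets. For rarer genes a single barcode did matter: 95.3% of the 43 Igkv1-88 UMIs of PEP-619WW came from its highest barcode.

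By family, the number before the hyphen, the 12 genes of family 12 together ruled 19.2% (PEP-WT) and 24.1% (PEP-619WW) of plasma barcodes, a log2 ratio of 0.33 (0.06 to 0.60). Family 1 held 9.10% and 9.28%, family 3 held 10.7% and 10.7%, and family 6 held 10.7% and 9.28%, with intervals of the ratio that held 0. Family 4, with 33 genes the most numerous, held 8.15% and 8.27%. Family 16 consists of Igkv16-104 alone and held 1.04% and 2.42%. Family 13, in which only Igkv13-84 and Igkv13-85 are functional, held 33 and 8 barcodes, or 2.86% and 0.807%, with a log2 ratio of -1.82 (-3.15 to -0.68).

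The genotype ratio of the dominated shares was next read for single genes. Of the 37 genes that ruled at least 20 plasma barcodes in both libraries together, which held 83.7% and 84.7% of the dominated barcodes, the ratio was above 0 for 17 and below 0 for 20. Its 95% interval lay above 0 for 3 genes, below 0 for 1, and held 0 for 33. Those above 0 were Igkv12-46, Igkv14-111 and Igkv16-104, and the gene below 0 was Igkv13-85. Each of these 4 intervals came to hold 0 under another setting. With at least 10 Igkv UMIs per barcode the interval was -0.03 to 0.77 for Igkv12-46, had no lower bound and ended at 2.58 for Igkv13-85, which no PEP-619WW barcode then had as its dominant gene, and was -0.27 to 2.36 for Igkv16-104. With gates that also took out barcodes with Ms4a1 or Cd3e it was -1.31 to 2.33 for Igkv14-111 and -0.05 to 2.70 for Igkv16-104, while that of Igkv12-44 rose off 0 (0.16 to 1.49). The rule for this set needed 20 barcodes, and the next gene outside it had 18. Igkv14-111, Igkv16-104 and Igkv13-85 each reached 20 through their higher library alone. The counts of genes with intervals off 0 are therefore described and not read as a result.

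Igkv14-111 ruled 15 PEP-WT and 29 PEP-619WW barcodes (1.30% and 2.93%), a log2 ratio of 1.17 (0.22 to 2.18). By UMIs it had 417 and 1341, a ratio of shares of 1.39 (1.23 to 1.55), and 17.7% of the latter came from its richest barcode. Igkv16-104 ruled 12 and 24 barcodes (1.04% and 2.42%), a log2 ratio of 1.22 (0.16 to 2.35). Its 421 and 988 UMIs gave a ratio of shares of 0.93 (0.77 to 1.10).

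Igkv13-85 ruled 23 PEP-WT and 4 PEP-619WW barcodes (1.99% and 0.404%), a log2 ratio of -2.30 (-4.30 to -0.75), and its count is uncertain because of its identical neighbour Igkv13-84. Its UMIs were few in both libraries, 173 and 84. The other genes with low ratios had intervals that held 0. Igkv5-39 ruled 24 and 10 barcodes (log2 ratio -1.04, -2.27 to 0.07), Igkv6-23 ruled 24 and 11 (-0.91, -2.08 to 0.18) and Igkv8-24 ruled 16 and 7 (-0.97, -2.50 to 0.39). At the upper end, Igkv3-5 ruled 10 and 16 barcodes (0.90, -0.33 to 2.20). These 37 intervals were read side by side without adjustment, and they do not include the difference between pools of mice.

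The genotype ratios of the Igkv genes were next set beside those of all genes. In plasma barcodes 78 of the 160 Igkv genes had at least 50 UMIs in both libraries together. A gene could pass this minimum through its higher library alone, so the counts below are described and not read as a result. In CPM, 17 of these 78 were at least 2-fold higher and 4 at least 2-fold lower in PEP-619WW, where 1.07% and 1.16% of all 11675 genes tested were so. The median log2 ratio of the 78 was 0.28, beside -0.0025 over all genes, and the summed Igkv level was higher in PEP-619WW as well. As a share of the Igkv UMIs, the split was 10 higher and 10 lower. Of these 20, Igkv14-111, Igkv13-85 and Igkv4-55 ruled at least 20 plasma barcodes in both libraries together. The others ruled fewer, such as Igkv4-70, which had 1 UMI against 86 and ruled 1 barcode, in PEP-619WW. In B barcodes 14 Igkv genes had 50 UMIs, and in CPM 0 were 2-fold higher and 0 were 2-fold lower, where 1.16% and 0.873% of 10768 genes were.

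**Figure D3:**
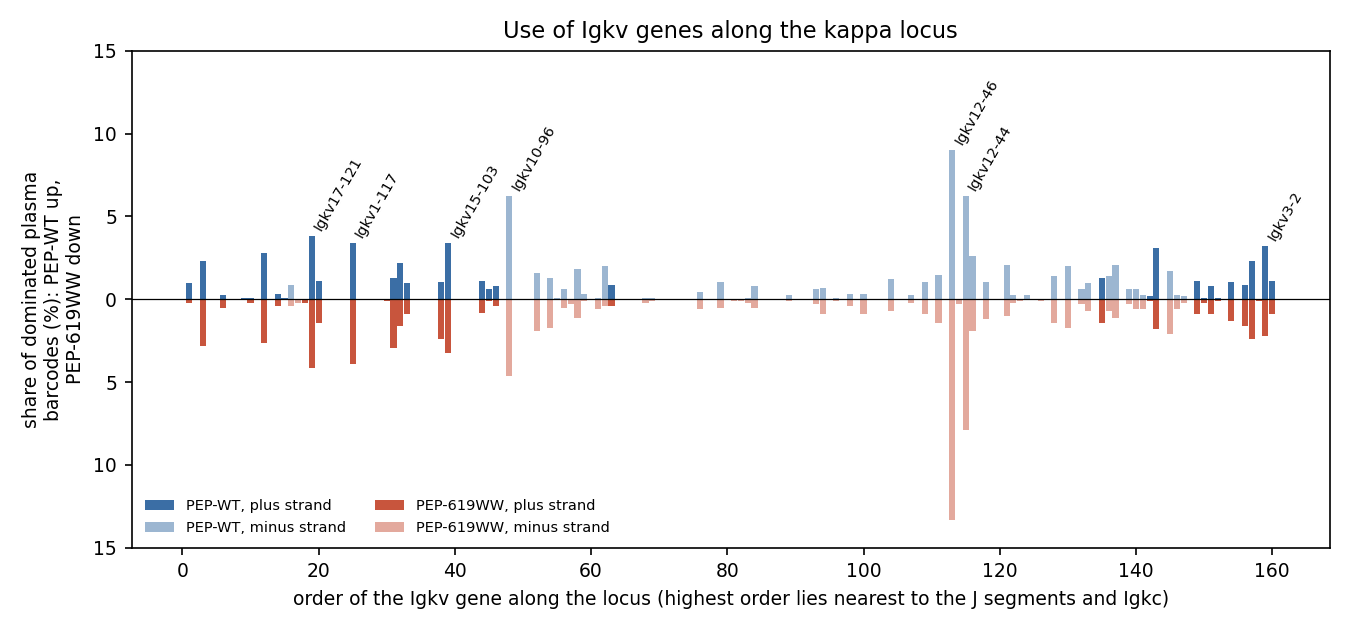
Share of dominated plasma barcodes, in percent, held by each of the 160 Igkv genes in their order along the kappa locus, with PEP-WT drawn upward and PEP-619WW downward, and plus strand genes in darker color. Igkv12-46 has the tallest bar in both libraries (9.01% and 13.3%), and the middle stretch of the locus is low in both.

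The kappa locus lies on chromosome 6, where Igkv2-137 (GRCm38, 67555497 to 67556216) is farthest from the J segments and Igkv3-1 (70703578 to 70704177) is nearest, upstream of Igkj1 at 70722562 and Igkc at 70726435 to 70726966. The genes nearest to the J segments, the last 54 in the order of which 43 are functional, ruled 51.6% (48.6 to 54.5) of the plasma barcodes in PEP-WT and 53.0% (49.8 to 56.1) in PEP-619WW. The 53 farthest genes, 29 of them functional, ruled 35.3% and 36.1%. The middle 53, with 28 functional, ruled 13.2% (11.3 to 15.3) and 10.9% (9.03 to 13.0). B barcodes had a like division of their Igkv UMIs, with 49.7% and 49.9% in the nearest, 40.2% and 39.1% in the farthest, and 10.2% and 10.99% in the middle genes. Genes on the plus strand, the orientation of Igkc, are 75 in number, 38 of them functional, and ruled 42.7% and 43.4% of plasma barcodes. The 85 on the minus strand, with 62 functional, ruled 57.3% and 56.6%.

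The spread over genes was measured by the effective number of genes, the inverse of the chance that 2 barcodes drawn at random share their dominant gene. It was 33.6 in PEP-WT and 25.8 in PEP-619WW, a log2 ratio of -0.38, for chances of 2.97% and 3.88%. Yet the number of genes seen in 991 barcodes was 75.4 in PEP-WT, computed exactly for that number, and 83 in PEP-619WW. Counted by UMIs, the number of genes detected in 33287 plasma Igkv UMIs was 111 and 107.9, so the order of the gene numbers depended on the measure. Shannon evenness (1 where all genes are equal) was 0.886 and 0.852. The 10 leading genes ruled 43.8% and 47.9% of barcodes, and 13 and 11 genes were needed to reach 50%. With the barcodes of Igkv12-46 left out, the effective numbers were 38.2 and 35.5 and the log2 ratio was -0.11. This gene was chosen after its values were seen, and the effective number depends most on the most frequent genes. No interval was computed for the effective numbers. Among kappa-high barcodes alone the effective numbers were 31.8 and 25.2. Over all 9 settings tried PEP-619WW had the lower value, with log2 ratios from -0.62 to -0.11.

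The same order held within the main isotypes, read from the heavy constant gene with the most UMIs in barcodes with at least 10. Ighg2c, the antiviral IgG2c class of this strain, marked 883 PEP-WT and 952 PEP-619WW plasma barcodes, and the effective number was 31.5 among 747 dominated barcodes and 24.1 among 620. For Ighm, the IgM class of early responses, it was 41.3 among 170 and 35.9 among 107. For Ighg2b it was 31.4 among 122 and 24.96 among 161, and for Ighg3 29.9 among 71 and 15.5 among 51. These barcodes are parts of those counted above, so the order within isotypes is not a separate result. No interval was computed for these numbers either.

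Igkv12-46 had its larger shares in the IgG classes. It ruled 7 of 170 Ighm barcodes in PEP-WT (4.12%, 1.67 to 8.30) against 77 of 747 Ighg2c barcodes (10.3%, 8.22 to 12.7). In PEP-619WW it ruled 7 of 107 Ighm barcodes (6.54%, 2.67 to 13.0) and 87 of 620 Ighg2c barcodes (14.0%, 11.4 to 17.0), and in both libraries the intervals of the 2 classes overlapped. In Ighg3 it ruled 5 of 71 and 11 of 51 barcodes. The leading gene of the Ighm barcodes was Igkv10-96 in PEP-WT with 12 of 170 and Igkv1-135 in PEP-619WW with 9 of 107.

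The light chain genes were not spread evenly over heavy chain genes. A dominant Ighv gene, by the same rule, was found together with a dominant Igkv gene in 938 PEP-WT and 798 PEP-619WW plasma barcodes, in 599 and 483 different pairs. Most pairs, 453 and 360, occurred in a single barcode. The largest pair in each library was Igkv12-46 with Ighv9-3, with 40 barcodes in PEP-WT (4.26%, 3.06 to 5.76) and 40 in PEP-619WW (5.01%, 3.60 to 6.76). The product of the shares of these genes would give 8.25 and 11.3 barcodes, so that the pair was 4.85 and 3.54 times as frequent as that. It made up 46.0% and 35.1% of the Igkv12-46 barcodes with a known heavy gene.

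Other pairs also came back in both mouse pools. Igkv12-44 was found with Ighv1-82 in 25 and 27 barcodes, 4.18 and 3.77 times the product of the shares, whereas Igkv12-46 met Ighv1-82 in 11 and 20, or 1.14 and 1.37 times. Igkv12-46 was found with Ighv7-3 in 10 and 15 barcodes, while Ighv7-3 had only 11 and 16 barcodes in all. Igkv15-103 was found with Ighv8-12 in 17 of its 33 barcodes in PEP-WT and 7 of 22 in PEP-619WW. Igkv12-89 met the same Ighv8-12 in 10 of 15 and 9 of 10 barcodes, 16.9 and 24.8 times the product. Igkv6-17 and Igkv17-121 were found with Ighv1-26 in 9 and 5 and in 6 and 8 barcodes. All 11 pairs with at least 10 barcodes in total occurred in both libraries. Over all pairs 139 were shared, which was 23.2% of the pairs seen in PEP-WT and 28.8% of those in PEP-619WW. Some smaller pairs were seen in PEP-619WW and not in PEP-WT. Igkv3-5 with Ighv1-42 had 0 and 7 barcodes, the latter of 15 with Igkv3-5 and 33.9 times the product of the shares. Igkv12-44 with Ighv1-22 had 0 and 5. In PEP-WT the product of the shares would give 0.0426 and 0.921 barcodes for these pairs, so their 0 there is not read as an absence. The files hold no junction sequence, so barcodes of a pair cannot be told apart as clones.

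**Figure D4:**
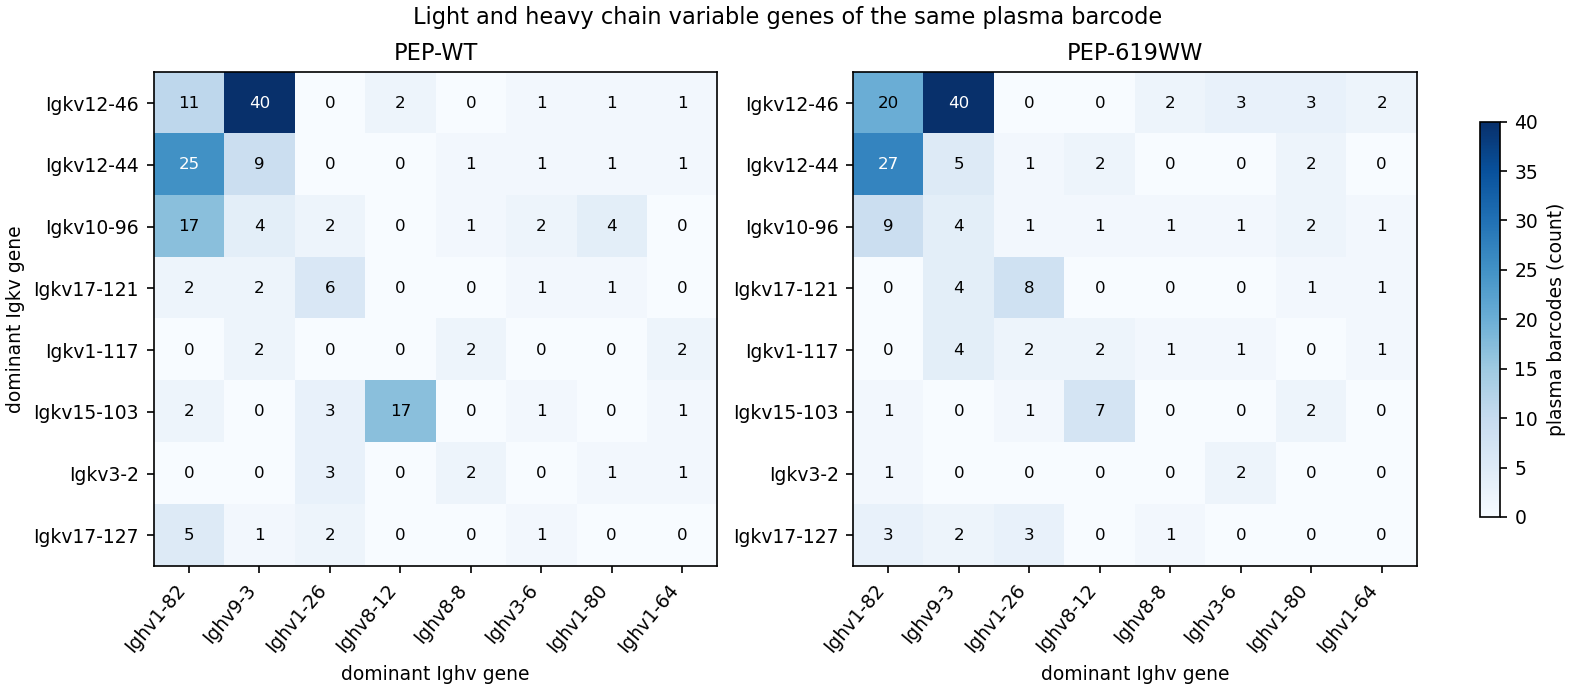
Number of plasma barcodes with each combination of dominant Igkv gene (rows) and dominant Ighv gene (columns), for the 8 most frequent genes of each kind, in PEP-WT (left) and PEP-619WW (right). The cells of Igkv12-46 with Ighv9-3 (40 and 40) and Igkv12-44 with Ighv1-82 (25 and 27) are the darkest in both panels.

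A second Igkv gene with at least 3 UMIs was present in 268 of the 1154 PEP-WT barcodes with a dominant gene (23.2%) and 295 of 991 in PEP-619WW (29.8%). Among all plasma barcodes with at least 3 Igkv UMIs, those with such a second gene were deeper, with median totals of 17519 and 22683 UMIs against 12144 and 14730. Doublets were not removed, and their part in these counts was not tested. The second gene was of the same family in 56 (20.9%) and 60 (20.3%) of the dominated barcodes that had one.

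The second gene was the nearest copy of the ruling gene in 23 of 268 (8.58%) and 17 of 295 (5.76%) of the barcodes with a second gene, and Igkv1-110 with Igkv1-117 gave 14 and 9 of these. Of the barcodes ruled by Igkv1-110, 14 of 25 in PEP-WT and 9 of 16 in PEP-619WW also held Igkv1-117, at a median of 18.8% and 24.2% of the Igkv1-110 UMIs. These are the genes that differed at 4 of the last 120 bases shown above. The nearest copy of Igkv12-46 is Igkv12-41, so barcodes of Igkv12-46 with Igkv12-44 are not among the nearest-copy counts. Igkv12-44 was the second gene, with at least 3 UMIs, in 9 of 104 (8.65%) and 15 of 132 (11.4%) barcodes ruled by Igkv12-46, at a median of 7.50% and 6%. With at least 1 UMI, Igkv12-44 was present in 6.38% and 11.8% of all barcodes ruled by another gene, a share at another minimum that is given beside it without a comparison. A count assigned to the wrong copy and a second transcript cannot be told apart in these files.

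Igkv3-1 and Igkv3-2, the genes nearest to the J segments, often had UMIs in barcodes ruled by another gene. Igkv3-1 was dominant in only 13 and 9 plasma barcodes but had UMIs in 147 and 189, and 48.0% and 24.7% of its UMIs lay in barcodes that it ruled. Among barcodes ruled by another gene, Igkv3-1 was present in 112 of 1141 (9.82%) and 133 of 982 (13.5%). Its neighbour Igkv3-2 was present in 9.22% and 10.8% of those ruled by another gene, with 74.7% and 49.7% of its UMIs in its own barcodes. The next genes outward had lower shares, with Igkv3-3 in 0.347% and 0.606%, Igkv3-4 in 0.355% and 0.620%, and Igkv3-5 in 1.49% and 2.05%, and Igkv3-4 had 93.6% and 94.3% of its UMIs in its own barcodes. The far more frequent Igkv12-46 was present in 2.38% and 4.42% of the barcodes ruled by another gene, Igkv10-96 in 3.79% and 6.14%, and Igkv12-44 in 6.38% and 11.8%. Of the shares given here, that of Igkv3-1 was the highest in both libraries. The Igkv12-44 share lay below that of Igkv3-2 in PEP-WT and above it in PEP-619WW. The part of position along the locus in these shares was not tested. By orientation of the ruling gene the intervals overlapped: Igkv3-1 was present in 11.04% (8.38 to 14.2) of PEP-WT barcodes ruled by a plus strand gene and 8.93% (6.86 to 11.4) of those ruled by a minus strand gene, and in 13.8% and 13.4% in PEP-619WW. In B barcodes Igkv3-1 had 7 and 1 UMIs.

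B barcodes had too few Igkv UMIs for dominant genes, so their profile was read from summed UMIs. Igkv12-44 led with 106 of 1574 UMIs in PEP-WT (6.73%, 5.55 to 8.09) and 77 of 846 in PEP-619WW (9.10%, 7.25 to 11.2). Igkv12-46 had 103 and 60 UMIs (6.54% and 7.09%), Igkv1-135 had 86 and 52 (5.46% and 6.15%), and Igkv1-117 had 80 and 43 (5.08% and 5.08%). Across the 160 genes the plasma and B counts correlated with Spearman's rho of 0.885 and 0.884 within the libraries, and B counts between the libraries with 0.896, over genes that share the genome and the assay.

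Within each library, some genes held a larger part of the plasma than of the B Igkv UMIs. The log2 ratio of plasma over B shares was read for 65 genes in PEP-WT and 69 in PEP-619WW. Each had at least 50 UMIs over the plasma and B barcodes of its library. Plasma barcodes held most of these UMIs, so a gene could enter through that gate alone. The counts below are therefore described and not read as a result. The interval of the ratio lay above 0 for 9 and 7 genes and below 0 for 14 and 10. It lay above 0 in both libraries for 6 genes: Igkv12-46, Igkv17-121, Igkv12-44, Igkv3-7, Igkv3-2 and Igkv3-1. The largest ratios of these were 2.28 and 4.46 for Igkv3-1, with only 7 and 1 B UMIs. Igkv3-7 followed with 1.53 and 1.97, on 8 and 4 B UMIs. The log2 ratio of plasma over B shares was 1.14 (0.85 to 1.43) in PEP-WT and 1.30 (0.93 to 1.69) in PEP-619WW for Igkv12-46. For Igkv17-121 it was 0.97 (0.51 to 1.49) and 0.90 (0.26 to 1.61), and for Igkv12-44 it was 0.66 (0.38 to 0.95) and 0.46 (0.14 to 0.81). Igkv15-103 had 1.14 (0.52 to 1.83) in PEP-WT but 0.37 (-0.39 to 1.24) in PEP-619WW. By dominated barcodes, Igkv12-46 had 9.01% (7.42 to 10.8) of plasma and 9.52% (4 of 42, 2.66 to 22.6) of B barcodes in PEP-WT, and 13.3% (11.3 to 15.6) and 9.09% (3 of 33, 1.92 to 24.3) in PEP-619WW, with overlapping intervals, so its higher plasma share was seen in UMIs and not in PEP-WT barcodes. Igkv12-44 ran the other way, with 6 of 42 B barcodes in PEP-WT (14.3%, 5.43 to 28.5) and 6 of 33 in PEP-619WW (18.2%, 6.98 to 35.5), against 6.24% (4.91 to 7.79) and 7.87% (6.27 to 9.73) of plasma barcodes, and the intervals overlapped in both libraries. Family 12 as a whole ruled 12 of 42 (28.6%) and 12 of 33 (36.4%) B barcodes, against 19.2% and 24.1% of plasma barcodes.

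The interval lay below 0 in both libraries for 3 genes, Igkv1-135, Igkv19-93 and Igkv6-15. Igkv1-135 had ratios of -0.86 (-1.18 to -0.53) and -1.28 (-1.68 to -0.85), Igkv19-93 of -1.18 and -1.65, and Igkv6-15 of -1.35 (-1.77 to -0.91) and -0.73 (-1.28 to -0.12). Plasma UMIs of 1 gene come in clusters of many per cell, so these counting intervals are narrower than the spread between cells. In T barcodes, which give the stray level, Igkv12-46 was the most frequent gene with 7 of 59 and 13 of 80 UMIs, and Igkv12-44 had 5 and 10.

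**Figure D5:**
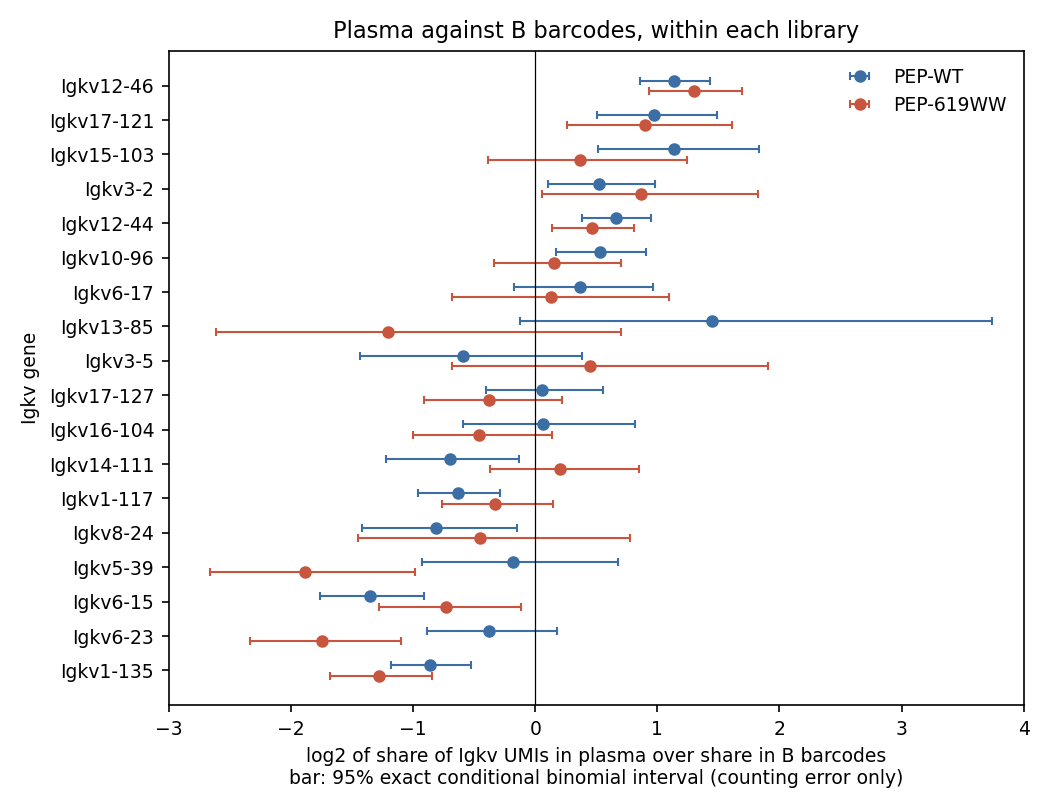
Log2 ratio of the share of Igkv UMIs in plasma barcodes over that in B barcodes for 18 named genes, in PEP-WT (blue) and PEP-619WW (red), with 95% exact conditional binomial intervals. Genes are ordered by the mean of both libraries, with Igkv12-46 at the top (1.14 and 1.30) and Igkv1-135 at the bottom (-0.86 and -1.28). Single libraries had values beyond these, such as 1.45 for Igkv13-85 in PEP-WT and -1.88 for Igkv5-39 in PEP-619WW. Igkv13-85 has the widest intervals. Igkv3-1 and Igkv3-7, whose ratios were higher than those of Igkv12-46 in both libraries, are not among the genes shown. The ratios are of UMIs, and by dominated barcodes Igkv12-46 had 9.01% of plasma against 9.52% of B barcodes in PEP-WT and 13.3% against 9.09% in PEP-619WW.

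Other genes of the light chain pathway were read from lists. Of 12 light chain genes outside the Igkv group, 7 had enough UMIs in plasma barcodes, and 0 were 2-fold higher and 1 was 2-fold lower in PEP-619WW, where 1.07% and 1.16% of all genes were. That gene was Iglv2, a lambda variable gene, with 160 and 55 UMIs. Igkc, the kappa constant gene, had 122073 and 141330 CPM in plasma barcodes, a log2 ratio of 0.21, and Iglc1, a lambda constant gene, had 7065 and 5092 CPM. All 13 transcription factors of the octamer and light chain regulator list were measured, and 0 passed 2-fold in either direction, beside the same 1.07% and 1.16% of all genes. Pou2af1, the B cell coactivator of octamer factors, had 253 and 264 CPM, Irf4, a driver of the plasma cell state, had 64.1 and 91.0 CPM, and Spib, an ETS factor of B cells, had 44.0 and 27.8 CPM.

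Of 8 heavy constant genes, Ighg1 was over 2-fold higher in PEP-619WW plasma barcodes with 483 and 979 CPM, and Ighe, the IgE constant gene, was lower with 251 and 29 UMIs, beside 1.07% of all genes higher and 1.16% lower. A single PEP-WT barcode gave 188 of the 251 Ighe UMIs (74.9%), and Ighe was the leading heavy constant gene in 1 plasma barcode of PEP-WT and 0 of PEP-619WW. In B barcodes 3 of the 7 measured were over 2-fold higher, where 1.16% of all genes were: Ighg1 with 13.9 and 38.9 CPM, Ighg2b with 62.3 and 215 CPM and Ighg2c with 387 and 828 CPM. Transcripts of plasma cells were also higher in T barcodes of that library, with Jchain, the joining chain of secreted IgM and IgA, at 43.2 and 91.9 CPM, and Jchain in B barcodes had 92.8 and 161 CPM. The part of such stray counts in the B values was not tested.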

How the data were processed

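The authors deposited raw UMI counts per gene and barcode, 1 table per library and run, made with Cell Ranger on mm10 (version 6.0.0 in the submitters' processing notes, another release in the study's methods), and no cell annotation was used here. Symbols matched for 32158 of 32285 gene IDs, and gene positions came from GENCODE vM21 (GRCm38, the same build as mm10). No filter on cells was applied beyond the gates and no doublet caller was run. Run 1 was analysed, a choice made with the contents of both runs known, and run 2, whose barcode numbers are those of the methods, served as an alternative. The total was 77916082 UMIs in PEP-WT and 56745578 in PEP-619WW, with medians of 2832 and 3293 per barcode. CPM and shares were computed per gate, and genotype ratios of UMIs for features with at least 50 UMIs over both libraries. Genes with a plasma over B ratio had at least 50 UMIs over both gates of a library. All intervals are exact 95% counting intervals without a test. Named genes were the 8 with the largest mean share of dominated barcodes in plasma and in B barcodes, the 4 highest and 4 lowest genotype ratios among genes ruling at least 20 barcodes (0.5 added to counts), and the 4 highest and 4 lowest plasma over B ratios. No B gene reached 20 barcodes. Other genes named in the text were chosen after their values were seen. The members and lists were chosen with earlier results of these data known. Alternatives were run 2, other gates, a barcode filter (at least 500 genes, below the 95th percentile of UMIs), other minimums, thinning to equal depth, subtraction of the T level, equal weights per barcode and another scaling. Scripts used Python 3.11.15, numpy 2.4.6, scipy 1.17.1 and matplotlib 3.10.9, and were tested on simulated data. A result for a list of rearrangement genes is not reported here.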

Additional observations from a re-analysis of the deposited data

Results flagged for a closer look

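The second run of the same samples, which the comparisons do not use, held 197 Igkv UMIs in PEP-619WW (95% exact Poisson interval 170 to 227) over 44 genes, beside 1 in PEP-WT. In PEP-619WW 109 of them lay in 15 barcodes of the plasma gate, where Igkv12-44 had 53, Igkv1-88 had 33 and Igkv8-30 had 23, and 60 lay in 500 B barcodes. PEP-WT had 0 plasma and 2 B barcodes in that run. The runs shared 38 barcode strings in PEP-WT and 19 in PEP-619WW, and this run, not run 1, has the cell numbers given in the methods.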

How the results depend on the processing

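No paired analysis was possible because each genotype has 1 library and no test was run. Of 123 recomputed main values 95 stayed within their interval or within 1.5 times the count. Some of these could not change. Thinning left the shallower PEP-WT plasma and B barcodes as they were. The 80% rule does not enter the median leading share, and the kappa-high setting leaves the B gate as it was. The 1.5-fold rule also kept the PEP-619WW effective number without Igkv12-46, 35.5 against 25.8. Of 144 recomputed ratios of named genes all lay within the reported interval, but 8 values of 4 genes (Igkv17-127, Igkv15-103, Igkv1-117, Igkv17-121) turned sign, each with a reported interval that held 0. In 7 values an interval off 0 came to hold it (Igkv16-104 in 4 settings, Igkv12-46, Igkv14-111 and Igkv13-85 in 1 each), and in 3 it came off 0 (Igkv12-44, Igkv6-17, Igkv5-39). The effective number was lower in PEP-619WW under all 9 settings. The kappa-high setting, the setting without Igkv12-46 and the pair share were chosen after seeing the data. The cause of the following shifts was not tested. Run 2 had 0 plasma and 2 B barcodes in PEP-WT and 15 and 500 in PEP-619WW, so its plasma values and B ratios rest on few barcodes. There the Igkv12-46 share of plasma Igkv UMIs was 0 in PEP-619WW and the median leading share was 79.5%. The Igkv12-44 share in B barcodes of PEP-619WW was 1.67%, and the T level was 0 in PEP-WT and 0 in PEP-619WW. In B barcodes 2688 genes passed 2-fold in place of 219, and run 2 gave no value for 9 other results. The Igkv12-46 share, 14.4% and 17.4% as reported, was 13.9% and 18.4% with stricter gates, 8.19% and 11.9% with equal weight per barcode, 18.5% in PEP-619WW with the barcode filter and 15.03% in PEP-WT among kappa-high barcodes. Stricter gates gave median leading shares of 97.6% and 94.3%. With equal weight Igkv12-44 had a mean share of Igkv UMIs of 10.8% and 17.9% over the B barcodes with at least 3 Igkv UMIs. With at least 10 Igkv UMIs the pair of Igkv12-46 and Ighv9-3 made up 6.55% in PEP-WT. Counts of Igkv genes past 2-fold by share, 20 in plasma and 1 in B barcodes, were 59 and 40 with a minimum of 1 UMI and 7 and 0 with 200 UMIs; in B barcodes they were 2 with a plasma gate of 10 Mzb1 UMIs, 0 with stricter gates and 5 with equal weight. Counts over all genes in CPM, 260 and 219, were 4470 and 4761 with 1 UMI and 94 and 82 with 200.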
